A study of Mus musculus with 10 samples.

Results

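The clustered histone genes were examined in spermatozoal DNA of 10 C57Bl/6 mice by reduced representation bisulfite sequencing (RRBS). They are the genes whose symbols begin with Hist1h, Hist2h, Hist3h or Hist4h, 70 in the GENCODE annotation of mm10, of which 67 are protein coding and 3 are pseudogenes. A CpG site was assigned to this set if it lay inside or within 1 kb of such a gene and had, with both strands summed, at least 10 reads in all 10 animals. This held for 235 CpG sites of 904364 in all. Of these, 14 lay nearest to a testis variant (Hist1h1t, Hist1h2aa or Hist1h2ba) and 221 nearest to a replication-dependent gene, a term used here for every other gene of the set.

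In the P-generation, 2 vehicle-control males (C8 and C14) had received 7.5% DMSO in phosphate buffered saline and 3 males (D10, D11 and D13) decitabine at 0.1 µg/g in this vehicle, given intraperitoneally 3 times a week over 7 weeks, starting when they were 7 weeks old. Once built into DNA, decitabine traps the DNA methyltransferases. The untreated F3-generation comprised F3C9, a descendant of C8, F3C30, a descendant of C14, F3D1 and F3D31, both descendants of D10, and F3D7, a descendant of D11. Spermatozoa had been obtained by mincing whole epididymides and straining the suspension, so that other cells of the organ could be carried along. Purity had been measured by flow cytometry in some P samples, without a value for each animal sequenced. RRBS reads only the ends of short fragments cut by the enzyme MspI at CCGG, and bisulfite turns unmethylated cytosines into thymine.

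Histones H2A, H2B, H3 and H4 form the protein core around which DNA is wrapped, and H1 binds the linker DNA between cores. The replication-dependent genes lie in clusters, carry short coding sequences mostly without introns, and are transcribed in S phase to supply new chromatin. Male germ cells add testis variants: H1T (Hist1h1t) in spermatocytes, and TH2B (Hist1h2ba) and TH2A (Hist1h2aa), which are encoded by a divergent gene pair and replace canonical H2B and H2A before transition proteins and protamines take over. The TH2B gene is known to be methylated in somatic tissues and unmethylated in spermatogenic cells.

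The summed coverage of CpG cytosines was between 48903817 in D13 and 115158278 in F3D1, and the mean methylation of all 904364 CpG sites was between 27.6% and 28.2%. The spermatozoal origin was checked at marker loci before the histone genes were read. CpG sites 2000 to 4000 bp upstream of the H19 start, methylated in sperm, had levels between 84.6% and 100% (2 CpG sites). The starts of the germ-cell genes Dazl, Ddx4, Sycp1 and Mael (within 500 bp, 93 CpG sites, 4 of 5 listed genes measured), which are unmethylated in sperm and methylated in somatic cells, were not at 0 in any animal. They had 14.7% in C14, 34.1% in C8, 26.5% in D10, 25.5% in D11 and 18.7% in D13. In the F3-generation the values were 15.3% in F3C30, 26.3% in F3C9, 18.5% in F3D1, 13.8% in F3D31 and 13.5% in F3D7. The maternally methylated starts of Peg3 and Peg10 (17 CpG sites, 2 of 6 listed genes measured), also unmethylated in sperm, had between 3.99% in C14 and 28.9% in C8. By these means, the vehicle-control animals C14 and C8 lay at or near opposite ends of both marker sets. Mael alone of the 4 germ-cell genes went the other way, with 16.4% in C14 and 9.89% in C8. Values without C14 or C8 are given for several results that move with these animals, though not for all.

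The sequences below show what was measured at the loci on which the results turn. They are read from the plus strand of GRCm38, run from the first to the last measured CpG site of a gene or fragment, and give the measured CpG sites in capitals. The first pair lies inside Hist1h2ba (chr13:23933994-23934152) and Hist1h2aa (chr13:23934558-23934676), 7 measured CpG sites each.
Hist1h2ba: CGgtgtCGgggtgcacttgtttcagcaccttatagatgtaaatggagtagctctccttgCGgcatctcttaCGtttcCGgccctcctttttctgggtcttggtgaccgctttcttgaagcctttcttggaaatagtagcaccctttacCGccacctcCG
Hist1h2aa: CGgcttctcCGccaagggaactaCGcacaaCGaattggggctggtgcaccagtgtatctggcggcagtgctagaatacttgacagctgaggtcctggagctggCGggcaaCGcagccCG

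Further CpG sites mark the range of the replication-dependent genes: the most densely measured short fragment at Hist1h4a upstream of its start (chr13:23761269-23761325), the pseudogene Hist1h2al (chr13:51202942-51202975), and introns of Hist1h2be (chr13:23591386-23591404) and Hist1h2bc (chr13:23687983-23688057). Sites were located by gene bounds alone, so the word intron for Hist1h2be and Hist1h2bc was not checked against exon coordinates.
Hist1h4a: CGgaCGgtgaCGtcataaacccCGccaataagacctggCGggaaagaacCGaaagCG
Hist1h2al: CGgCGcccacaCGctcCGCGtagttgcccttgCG
Hist1h2be: CGggactcttgtcttctCG
Hist1h2bc: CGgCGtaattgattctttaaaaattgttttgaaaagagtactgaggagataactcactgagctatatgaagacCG

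The RRBS data reached only a part of the clusters. Of the 70 genes, 31 had a measured CpG site in their window and 39 had none, and 9 of the latter had no CpG site listed in any animal. The measured sites were assigned to 79 MspI fragments, with a CpG site at a cut counted to the fragment that follows it. Some of these fragments are too long for RRBS (up to 6046 bp), so 79 is not the number of fragments read. Of the genes, 26 were the nearest gene to at least one measured site. Inside genes lay 166 CpG sites, 58 lay upstream and 11 downstream. By cluster, Hist1 held 175 sites at 19 of 56 genes, Hist2 held 49 at 5 of 10, Hist3 held 11 at 2 of 3, and the only Hist4 gene held 0.

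Among 61 histone genes with an entry in the RefSeq promoter table (GRCm38, 250 bp upstream to 50 bp downstream of the start), 22 promoters (36.1%) contained CCGG, against 52.8% of all 32851 promoters of this length. The share was highest for H1 (4 of 5) and lowest for H2B (2 of 15). The replication-dependent promoters held a median of 11.5 CpG sites, between 3 and 41, against a median of 7 in all promoters. Promoter elements known from histone genes were present as letters on either strand: CCAAT in 85.2% of histone promoters and 37.4% of all promoters, and the octamer ATTTGCAT, known from H2B promoters, in 21.3% and 1.74%. Apart from the testis variants, CCAAT was in all H1, H2A, H2B and H3 promoters, but in only 3 of 12 H4 promoters (25%). The octamer was found in 6 of 16 H2A and 5 of 15 H2B promoters and in 0 of the H1, H3 and H4 promoters that are not testis variants. Divergent H2A and H2B genes, such as Hist1h2ae and Hist1h2bg, share promoter sequence, so the same letters can be counted for both genes. AAACACA, the letters of the H1 box, was found in 4 of 5 H1 promoters and 7.18% of all promoters. The histone coding sequences occur in near-identical copies, and the aligner places a read only where its position is unique, so that levels inside coding sequences depend on bases that differ between copies. How many reads were lost in this way was not tested.

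Hist1h1t (chr13:23695814-23696725, plus strand) could not be described. Its window had 5 listed CpG sites with reads in 2 animals, at most 2 reads per site and animal, and 0 of the 6 calls were methylated. Its RefSeq promoter holds 10 CpG sites and a single CCGG, and 0 of these sites were measured.

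Hist1h2ba (chr13:23933773-23934156, minus strand) and Hist1h2aa (chr13:23934462-23934851, plus strand) share a short intergenic region. All 14 measured CpG sites lay inside these genes, between 5 and 162 bp behind the start of Hist1h2ba and between 96 and 213 bp behind that of Hist1h2aa. The promoter of Hist1h2ba (RefSeq, chr13:23934107-23934406, printed on the minus strand with every CpG site in capitals) contains 7 CpG sites, of which the last 2, inside the gene, were measured.
Hist1h2ba promoter: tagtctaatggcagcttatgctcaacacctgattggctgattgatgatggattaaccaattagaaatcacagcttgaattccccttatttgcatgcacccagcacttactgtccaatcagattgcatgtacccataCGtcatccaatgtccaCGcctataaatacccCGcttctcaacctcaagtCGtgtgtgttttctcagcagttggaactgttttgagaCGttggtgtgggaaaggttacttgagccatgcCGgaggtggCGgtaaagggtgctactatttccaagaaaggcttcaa

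A single octamer lies in the region shared by both promoters, starting 164 bp upstream of the Hist1h2ba start and, on the opposite strand, 124 bp upstream of the RefSeq start of Hist1h2aa. The measured stretches printed above begin behind the gene starts, and no CpG site of the shared upstream region was measured.

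Both TH2 genes were methylated at an intermediate level, whereas most replication-dependent genes were nearly unmethylated. The mean over the 14 CpG sites was 20.1% in C14, 27.8% in C8, 42.1% in D10, 34.2% in D11 and 13.4% in D13. In the F3-generation it was 12.1% in F3C30, 24.8% in F3C9, 26.7% in F3D1, 19.8% in F3D31 and 16.8% in F3D7. D10 and D11 had the highest levels and F3C30 and D13 the lowest, so that treated animals lay at both ends of the P-generation. The level over all animals was 23.8% ± 9.40 (SD, n = 10), against 3.28% ± 0.270 (SD, n = 10) for the 221 replication-dependent CpG sites. The difference within an animal was 20.5 percentage points on average and was positive in 10 of 10 animals (exact sign-flip permutation test, two-sided, p = 0.00195, the smallest p this test can give). Descendants and their ancestors were counted as separate animals in this test.

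All 140 single values of the TH2 CpG sites were above 0, while 1652 of 2210 values of the replication-dependent sites (74.8%) were 0. The 10-animal means of the TH2 sites were between 11.1% and 28.8%, and their SD among sites, 4.82 percentage points, was smaller than the SD of 9.40 among animals. Summed over these sites, a CpG was read between 508 times in D13 and 1062 times in F3D1. The methylated share was 41.5% in D10 (95% Wilson interval 37.3% to 45.8%) and 14.8% in D13 (11.9% to 18.1%). Neighbouring CpG sites lie on the same reads, and copies made by PCR are not marked, so these intervals cover counting error only and are too narrow.

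**Figure D1:**
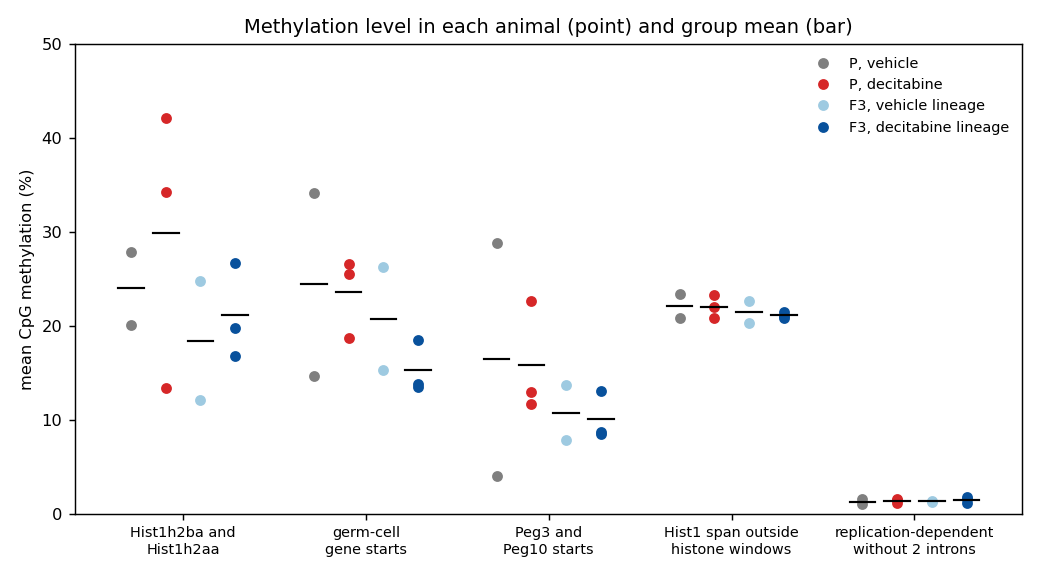
Mean CpG methylation (%, y axis) of 5 sets of CpG sites (x axis) in each animal (points, coloured by group), with group means as bars. The TH2 pair spans 12.1% to 42.1%, close to the range of the germ-cell gene starts (13.5% to 34.1%), while the replication-dependent genes without the introns of Hist1h2be and Hist1h2bc stay between 0.986% and 1.76%.

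Intermediate levels were also found in other sets. The 356 CpG sites of the Hist1 span outside the histone windows had between 20.3% and 23.4%, a narrower range than the 12.1% to 42.1% of the TH2 pair. The 7 other CpG sites within 50 kb of the TH2 pair had between 27.4% and 53.6%. Between animals, the TH2 level went with that of the germ-cell gene starts (Pearson's r = 0.667, permutation p = 0.0343; Spearman's rho = 0.673, permutation p = 0.0386; n = 10), but neither p passed 0.05 after adjustment over the 4 relations computed (Benjamini-Hochberg, permutation p = 0.137 and 0.154). Without C8 and D10, the animals farthest from the median marker level, r was 0.686 (n = 8). With the Peg3 and Peg10 starts r was 0.403 (permutation p = 0.246). The replication-dependent level without the 2 introns had r = 0.128 with the germ-cell gene starts (permutation p = 0.722). Each generation holds too few animals for a value of its own. The part of the marker levels in the TH2 levels was not tested.

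Within the pair, the mean was 21.1% ± 9.55 (SD, n = 10) for Hist1h2ba and 26.4% ± 11.5 (SD, n = 10) for Hist1h2aa. Hist1h2aa lay above Hist1h2ba in 7 of 10 animals, but the genes did not differ beyond the spread between animals (exact sign-flip permutation test, p = 0.102). C8 showed the widest gap, 41.3% at Hist1h2aa and 14.4% at Hist1h2ba. In C8, the first 4 sites of Hist1h2aa each had 55.3%, and the last 3 each had 22.6%. Neighbouring sites of a fragment are read together, so they are not separate measurements.

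**Figure D2:**
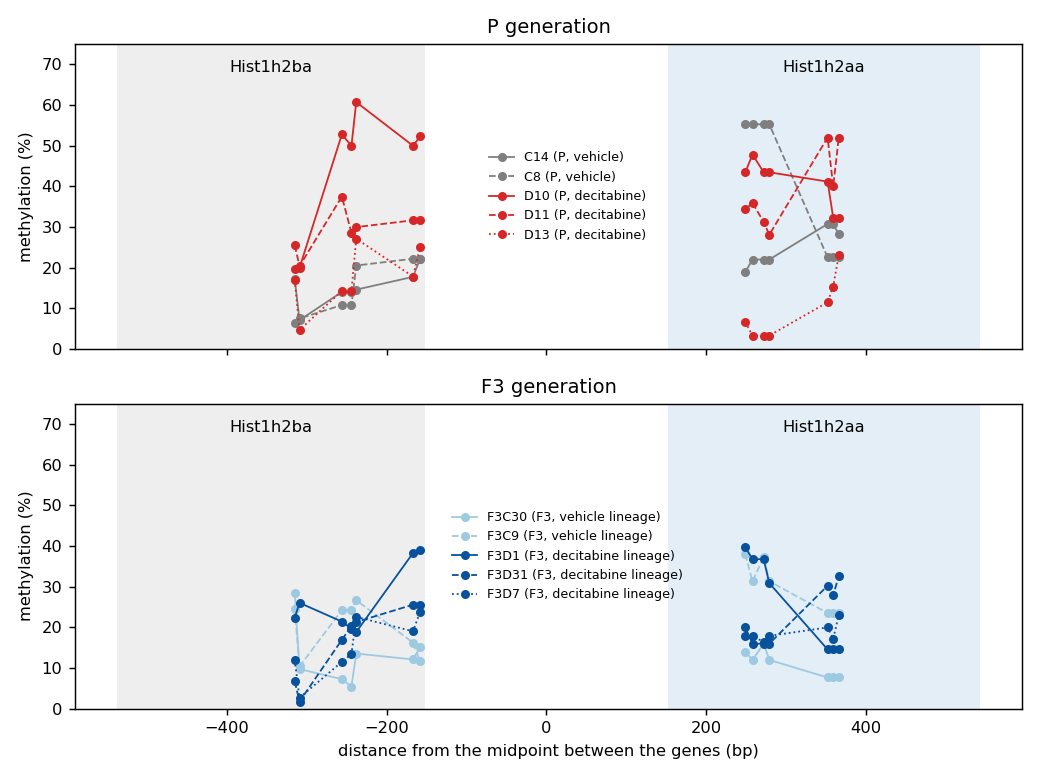
Methylation (%, y axis) of the 14 measured CpG sites of Hist1h2ba and Hist1h2aa by distance from the midpoint between the genes (bp, x axis), with the P-generation above and the F3-generation below, 1 line per animal and shaded genes. D10 reaches 60.7% in Hist1h2ba and D13 falls to 3.33% in Hist1h2aa, whereas no site between the genes was measured.

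The next question was whether treatment changed the TH2 pair in treated animals or in their descendants. In the P-generation the mean was 24.0% ± 5.42 (SD, n = 2) in vehicle-control and 29.9% ± 14.9 (SD, n = 3) in decitabine treated animals, which is 5.92 percentage points higher (two-sided exact permutation test, p = 0.7). The F3 animals had 18.4% ± 8.98 (SD, n = 2) in the vehicle and 21.1% ± 5.06 (SD, n = 3) in the decitabine lineage, 2.69 percentage points higher (two-sided exact permutation test, p = 0.8). With 2 against 3 animals no p below 0.1 is possible. Without C14 the difference in P was 2.08, without C8 9.76 and without D10 -0.191 percentage points, and without F3C30 the difference in F3 was -3.66. The difference in P did not differ detectably from that in F3 (3.23 percentage points apart, exact permutation within generations, p = 0.79). From the P- to the F3-generation the level was lower by 7.50 percentage points, from 27.5% ± 11.3 (SD, n = 5) to 20.02% ± 5.93 (SD, n = 5), which did not pass the test either (exact permutation test, p = 0.23). All 5 F3 animals lay below their own ancestors. With 1 difference for each of the 4 ancestors, the mean was -11.9 percentage points (exact sign-flip permutation test, p = 0.125, the smallest 4 ancestors allow), a pairing chosen after the data had been seen.

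At single CpG sites, pooled reads of decitabine treated animals were compared with those of vehicle-control animals by a logistic model, and a call required a q-value under 0.01 and a pooled difference of 25 percentage points or more. Of all CpG sites, 0.67% were called in P and 0.216% in F3. None of the 14 TH2 sites was called in either generation. Without C14, a Hist1h2aa site was called lower, 1 of 4 histone calls (4.33% of all CpG sites called). Without D13, a Hist1h2ba site was called, 1 of 3 histone calls (0.839% of all). With at least 20 reads, 0 histone sites were called in P (0.491% of all) or in F3 (0.128%). In P, 10 of the 14 were higher after decitabine (30.7% of all CpG sites), with differences between -10.3 and 21.1 percentage points. At 6 of them the difference was at least 10 points in either direction (9.69% of all). All 7 sites of Hist1h2ba were among the higher ones, but neighbouring sites are read together and are not separate measurements. Hist1h2ba had 15.3% in C14 and 14.4% in C8, against 43.6% in D10, 29.3% in D11 and 17.2% in D13, so that its groups did not overlap. How many of all genes had separate groups in this way was not computed. For Hist1h2aa the groups overlapped, with 24.97% and 41.3% against 40.6%, 39.1% and 9.52%. At single sites, the groups did not overlap at 4 of 14 TH2 sites in P and 3 of 14 in F3, against 8.39% and 9.73% of all CpG sites. Sites at 0 in every animal are neither higher nor separate, and no TH2 value was 0. The TH2 counts and the shares of all CpG sites are therefore not of like sites. In F3, differences ran from -11.5 to 17.9 percentage points and 10 of 14 sites were higher (36.6% of all CpG sites). With a lower limit of 10 percentage points, 2 TH2 sites, both in Hist1h2ba, were called higher in P (2.12% of all CpG sites), and 0 in F3 (1.0%). Under a test that allows for variation between animals (quasi-binomial F test), 0 CpG sites of all were called in either generation, and among all CpG sites 10159 had an unadjusted p under 0.05 in P and 11194 in F3, of which 1 in each lay at the histone genes.

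**Figure D3:**
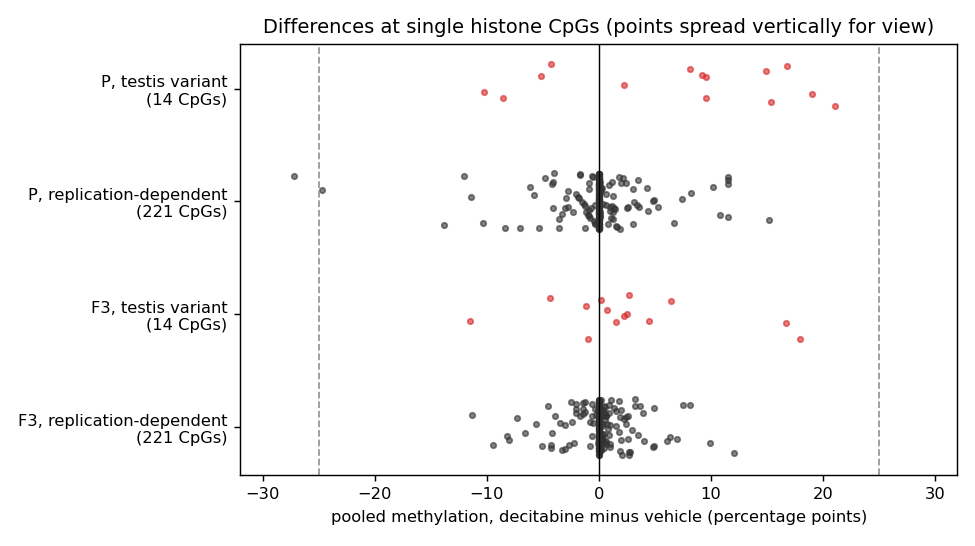
Pooled methylation difference of decitabine minus vehicle (percentage points, x axis) at each histone CpG site, in rows by generation and kind of gene, with dashed lines at the limits of -25 and 25. A single replication-dependent site of the P-generation, in Hist1h2be at -27.2, passes a limit, and TH2 sites spread from -10.3 to 21.1 in P and from -11.5 to 17.9 in F3.

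The replication-dependent genes were almost free of methylation. Of their 221 CpG sites, 196 had a mean under 5%, 20 between 5% and 20%, 2 between 20% and 80%, and 3 at least 80%. Of the 24 genes, 19 had a mean under 2%. Outside histone genes, CpG sites within 1 kb of the starts of protein-coding genes had between 1.75% and 2.15% in the 10 animals. The replication-dependent genes without the introns of Hist1h2be and Hist1h2bc had between 0.986% and 1.76%.

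By family, the mean over animals was 1.28% ± 0.416 (SD, n = 10) for H1 (67 CpG sites, 5 genes), 2.23% ± 0.996 for H2A (35, 5 genes), 0.815% ± 0.353 for H3 (38, 4 genes) and 1.19% ± 0.377 for H4 (49, 3 genes). The H2A mean includes 6 sites of the pseudogene Hist1h2al, which had 7.40%. Every other measured H2A gene had a mean between 0.633% and 1.95%. H2B stood at 14.7% ± 1.16 (32 CpG sites, 7 genes), and at 1.56% ± 0.552 without Hist1h2be and Hist1h2bc. Levels of families were not tested against each other. Hist2 had 1.70% ± 0.240 and Hist3 0.845% ± 0.620. Sites upstream of replication-dependent genes had 1.39% ± 0.396, and the 11 sites downstream had 3.24% ± 1.91.

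**Figure D4:**
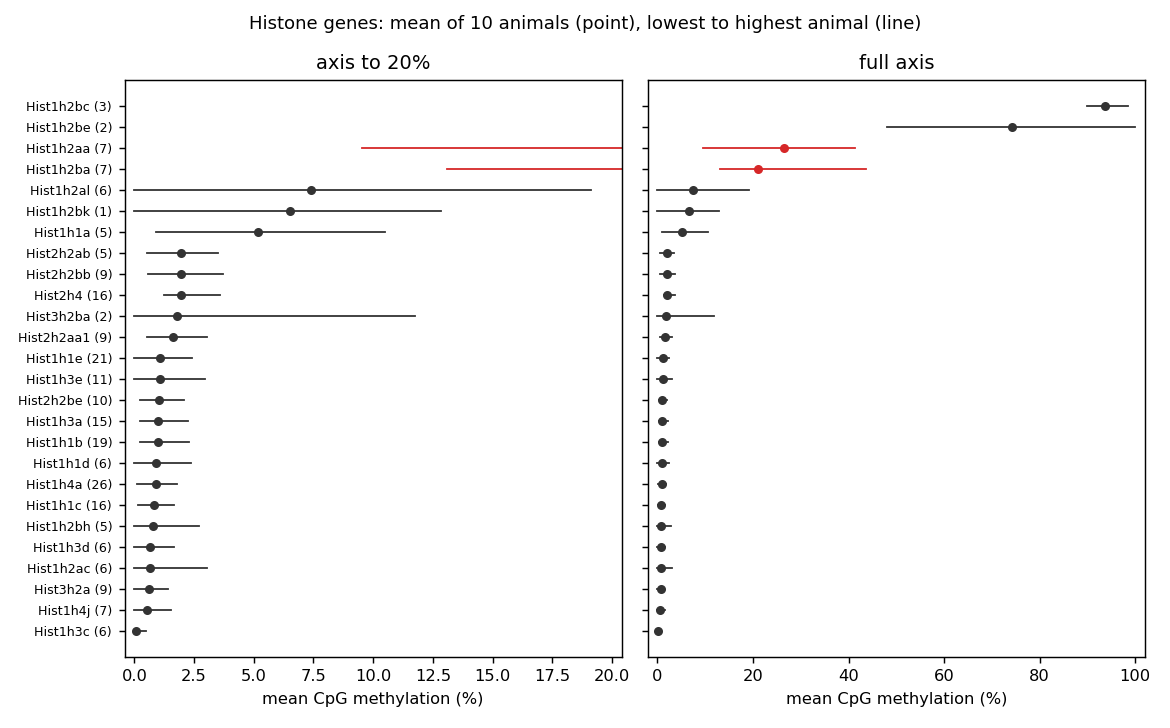
Mean CpG methylation (%, x axis) of the 26 genes with measured CpG sites (y axis, number of CpG sites in brackets), as the mean of 10 animals (points) and the lowest to highest animal (lines), on an axis to 20% (left) and the full axis (right). The TH2 genes (red) and the introns of Hist1h2be and Hist1h2bc exceed 20%, and 19 replication-dependent genes lie under 2%.

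The lowest levels were found at Hist1h3c, which encodes H3, with 0.0883% ± 0.187 (SD, n = 10) over 6 CpG sites. In the P-generation no methylated call was found there. Taking the highest site coverage of each animal, since the sites share reads, this is 0 of 144 reads, which allows a level of up to 2.08% for counting error only. Hist1h4j, an H4 gene, had 0.523% ± 0.543, between 0% in 4 animals and 1.53% in F3C30. Hist3h2a, an H2A gene of chromosome 11, had 0.633% ± 0.515, between 0% in C8 and D13 and 1.41% in C14.

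The highest level was that of Hist1h2bc (chr13:23684199-23692908), an H2B gene. Its 3 CpG sites, called intronic here without a check of exon coordinates, had 93.7% ± 2.65 (SD, n = 10), between 89.8% in D11 and 98.5% in F3D7. Its window held 9 measured CpG sites, the other 6 of which lay nearer to Hist1h2ac and were nearly unmethylated (0.637% ± 0.990). Hist1h2be (chr13:23583670-23621124), likewise an H2B gene, had 74.3% ± 17.0 at 2 CpG sites inside it, called intronic in the same way. Its sites lie 29738 and 29721 bp behind the gene start.

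At chr13:23591386, the first intronic site of Hist1h2be, the level was 84.3% in C14 and 100% in C8, against 51.3% in D10, 50% in D11 and 93.1% in D13. D10 and D11 were low, but D13 lay between the vehicle-control animals, so the groups overlapped. Pooled reads gave 88.1% of 67 reads in vehicle-control and 60.8% of 120 reads in decitabine treated animals, a difference of -27.2 percentage points (logistic likelihood-ratio test, Benjamini-Hochberg q = 0.00284). This was the only histone CpG site called in P. Without C14 its difference was -39.2 percentage points. The neighbouring site 17 bp away missed both limits with -24.7 percentage points (q = 0.0114). In F3, the first site had 76.7% in F3C30 and 64.6% in F3C9, against 87.8% in F3D1, 76.5% in F3D31 and 80% in F3D7, a pooled difference of 12.1 percentage points in the other direction (q = 0.233). Under the quasi-binomial F test the call in P was lost (p = 0.206, q = 1), and it was also lost without C8, without D10 or without D11, with differences of -23.5, -22.6 and -18.9 percentage points.

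Elevated levels at other replication-dependent genes were small and uneven. The pseudogene Hist1h2al (chr13:51202727-51203065) lies apart from the other Hist1 genes, which end at chr13:23934851. It had 7.40% ± 6.55 (SD, n = 10) over 6 CpG sites that lie within 34 bp. It had 1.89% in C14 and 3.97% in C8, against 7.63% in D10, 18.6% in D11 and 19.1% in D13, so the groups of the P-generation did not overlap. In F3 it had 6.44% in F3C30 and 0% in F3C9, against 2.49%, 7.60% and 6.25%, and the groups overlapped. Hist1h2al was named partly for its window difference in P, the largest of the histone genes. As for Hist1h2ba, how many of all genes had separate groups in P was not computed. Hist1h1a, an H1 gene, had 5.17% ± 3.47 over 5 sites. Its highest values were those of C8 (10.5%), F3C9 (9.95%) and F3D31 (8.81%), and its lowest that of C14 (0.889%). Hist2h2ab (1.95% ± 0.842, H2A) and Hist2h2bb (1.95% ± 1.11, H2B) followed. Hist1h2bk had 6.54% at a single downstream site.

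Each gene window was also tested with limma, as the log2 of methylated over unmethylated reads, across 24060 genes with at least 3 CpG sites, 28 of them histone genes. None was called in P, in F3 or for the difference between generations at an adjusted p under 0.05, and the same held for all genes (0.0% called in each). Without C14, 1.16% of all genes were called in P and 0.17% for the difference between generations, again with 0 histone genes. At an unadjusted p under 0.05, the histone genes numbered 4 of 28 in P (6.35% of all genes), 0 in F3 (2.61%) and 2 for the difference between generations (4.81%). Over the 28 genes, 15 were higher and 13 lower in P, with a median difference of 0.11 on the log2 scale against -0.04 for all genes. In F3, 16 were higher and 12 lower, with a median of 0.18 against 0.01. Windows of neighbouring histone genes overlap and share CpG sites, so these counts are not of separate loci.

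The largest difference in P was that of Hist1h2al, 2.42 ± 0.88 (SE) on the log2 scale (limma, adjusted p = 0.744). It was 1.90 without C14 and 2.94 without C8. Hist1h4a and Hist1h3a, an H4 and an H3 gene that lie side by side and share CpG sites in their windows, had -1.37 ± 0.56 and -1.33 ± 0.54 in P (limma, adjusted p = 0.778 for both). These values moved with the vehicle-control animals, to -0.66 for both genes without C8 and to -2.08 and -1.99 without C14. The window of Hist1h4a had 0.825% in C14 and 2.29% in C8, against 1.11% in D10, 0.392% in D11 and 0.362% in D13. In F3, Hist1h4a had 1.13 ± 0.56 and Hist1h3a 1.11 ± 0.54, the opposite direction (limma, adjusted p = 1.00 for both). Its window then had 0.690% in F3C30 and 0.600% in F3C9, against 0.972% in F3D1, 1.58% in F3D31 and 1.75% in F3D7. The highest of these levels was that of C8. With windows of 200 bp, the sign of the Hist1h3a difference turned in both generations (0.46 in P and -0.65 in F3). The difference between the generations was -2.50 for Hist1h4a and -2.44 for Hist1h3a, with unadjusted p of 0.012 and 0.011 and adjusted p of 0.999 in limma. Hist1h2ac had the largest difference in F3, 1.24 ± 0.98 (limma, adjusted p = 1.00), but this lay between 0.46 without F3C9 and 2.22 without F3D31, and was 2.14 with 0.1 added to each count. The fourth gene under an unadjusted p of 0.05 in P was Hist1h3c, whose difference of -0.81 was obtained with 0 methylated reads in all 5 animals and rests on the 1 added to each count. The shared window of the TH2 pair had 0.50 ± 0.61 in P and 0.24 ± 0.61 in F3 (limma, adjusted p = 0.937 and 1.00). The value in P was 0.06 without D10 and 1.07 without D13. With windows of 200 bp, Hist1h2ba had 1.27 in P and an unadjusted p under 0.05 (limma, adjusted p = 0.727).

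Averaged over the 221 CpG sites, the replication-dependent genes had 3.32% ± 0.480 (SD, n = 2) in vehicle-control and 3.16% ± 0.0502 (SD, n = 3) in decitabine treated animals of P (exact permutation test, p = 0.7). In F3 they had 3.18% ± 0.159 (n = 2) and 3.44% ± 0.356 (n = 3, exact permutation test, p = 0.4). Between the generations, the means were 3.23% ± 0.258 in P and 3.33% ± 0.30 in F3 (n = 5 each, exact permutation test, p = 0.54). The difference in P, -0.159 percentage points, depended on the genes and animals included. It was 0.0871 without the introns of Hist1h2be and Hist1h2bc and -0.504 for protein-coding genes (exact permutation test, p = 0.1, the smallest possible). Without C8 it was 0.180, and without C14 -0.499. Over all 235 CpG sites the difference was 0.203 percentage points in P (exact permutation test, p = 0.8) and 0.406 in F3, where the groups of 4.09% ± 0.385 (n = 2) and 4.49% ± 0.0847 (n = 3) did not overlap (exact permutation test, p = 0.1, the smallest possible). This separation was lost with at least 20 reads per site (exact permutation p = 0.5), for protein-coding genes (exact permutation p = 0.3) and by reads, where the difference was 0.0648 (exact permutation p = 0.9). Without F3C30 the difference in F3 was 0.134, and without C14 that in P was -0.345.

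Histone genes outside the clusters held both low and intermediate levels. Of 19 listed histone genes outside the clusters, 14 had measured CpG sites within 1 kb of the start, and 10 of these had a mean under 5%. Among the latter were H2afz (0.661%), which encodes H2A.Z, H3f3a (0.702%), which encodes H3.3, H2afx (0.849%) and Cenpa (1.00%), the histone H3 of centromeres. H1fnt, the H1 variant of spermatids, had 26.4%, between 16.5% in F3C30 and 43.2% in D10. H2afb3 had 24.0%, H2bfm 24.7% and H2afy3 46.4%. Of 9 listed genes of histone mRNA synthesis and processing, 7 were measured, and all 7 had a mean under 5%, such as Npat (1.04%), the activator of histone transcription, and Slbp (1.74%), which binds the stem-loop of histone mRNA. Of the 5 protamine and transition protein genes, Tnp1 alone was measured, with 23.3% and between 13.8% in D13 and 40.2% in C8. The list of histone mRNA genes had also held the symbol Symp, which the annotation lacks, and Ern2, a stress kinase gene that does not belong there (8.21% at 1 site), and both were left out after their values had been seen. No test was made of these lists.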

How the data were processed

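RRBS was analysed in spermatozoal DNA of 10 mice. The authors cut the DNA with MspI, trimmed reads with Trim Galore 0.3.3 and cutadapt 1.1 after CASAVA 1.8.2, mapped them to mm10 and called methylation with Bismark 0.10.1, as given in the submitters' processing notes. For each CpG cytosine and animal, they deposited 2 read counts, methylated and unmethylated, separately by strand and without normalization. All else was computed here. Strands were summed, CpG sites with at least 10 reads in all 10 animals were kept, and a site was assigned to the nearest histone gene (GENCODE vM21) within 1000 bp. Levels are means of CpG percentages per animal. Single sites were tested by a logistic likelihood-ratio test of pooled counts, a reimplementation of the test in methylKit, with Benjamini-Hochberg adjustment over 904364 sites, a minimum difference of 25 percentage points and q under 0.01. Gene windows were tested with limma 3.58.1 on log2 ratios with 1 added to each count, over 24060 genes, at an adjusted p under 0.05. Levels were compared by exact permutation. The site and window tests were tested on simulated data with known differences. The simulated sites held no variation between animals, so they cannot show how often the site test makes calls from such variation. Python 3.11.15, SciPy 1.17.1 and R 4.3.3 were used.

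The named genes were the testis variants, genes with a called site, the 5 replication-dependent genes with the highest and the 3 with the lowest mean among those with at least 3 sites, and the 3 genes with the largest window difference in each generation. Hist1h2bk and the genes of the other lists were named in addition. The members and lists were chosen with earlier results of these data known. Animals were counted as replicates, although descendants share ancestors. Both counts of a site share a single field of the files, and were split before use.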

Additional observations from a re-analysis of the deposited data

How the results depend on the processing

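The within-animal difference between the TH2 genes and the replication-dependent genes kept its direction and passed its test under every alternative tried, with 15.1 percentage points as the mean over genes, 20.9 by reads and between 18.4 and 21.8 without each animal in turn (exact p at most 0.00391). The alternative without CpG sites near both kinds of gene removed 0 sites. All 14 TH2 sites lie at a single gene pair, so this test cannot speak for testis variants as a class.

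The number of histone CpG sites called in P depended on the setting. It was 1 of 235 histone sites, against 6059 calls in all (0.67% of 904364 sites). With a limit of 10 percentage points it became 9, against 19205 in all (2.12%). With a minimum of 20 reads it was 0 of 158 histone sites, against 3109 calls in all (0.491% of 633116 sites). It was 0 of 0 calls with the quasi-binomial F test and with limma per site. In limma, 15 of 235 histone sites and 54817 of all 904364 sites had an unadjusted p under 0.05. Leaving out single animals gave between 0 and 4 histone calls. There were 4 without C14 (39166 in all), 3 without D13 (7591) and 0 without C8 (2475), D10 or D11. In F3, the histone count was 0 in all settings tried, with 1950 calls in all, 9077 at 10 percentage points, 810 with 20 reads, 643 without F3C9 and 11284 without F3C30. The windows of histone genes gave 0 calls throughout, although 280 of all genes were called in P and 41 for the difference between generations without C14.

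The differences between groups were small, and several changed sign. The TH2 difference in P lay between -0.191 and 14.2 percentage points and that in F3 between -3.66 and 9.04 when single animals were left out. It was -0.102 in F3 without F3D1. For F3 minus P it lay between -11.0 and -3.86, and was -11.9 with descendants paired with ancestors. The replication-dependent difference in P lay between -0.499 and 0.180 without single animals, was -0.761 as the mean over genes and -0.504 for protein-coding genes, and was 0.0871 without Hist1h2be and Hist1h2bc, an alternative chosen after the data had been seen. In F3 it lay between 0.0812 and 0.437 without single animals, and was 0.702 as the mean over genes and 0.0308 by reads. From P to F3 it was -0.0693 by reads and between -0.00872 and 0.216 without single animals. Over all histone sites in P it was -0.247 as the mean over genes, -0.111 for protein-coding genes, -0.138 without D10, and between -0.345 and 0.751 without single animals, and in F3 between 0.134 and 0.678. With windows of 200 bp, Hist1h3a had 0.46 in P and -0.65 in F3 on the log2 scale. The TH2 window in F3 had -0.39 without F3C30 and -0.0253 without F3D1. The causes were not tested. At the lowest median coverage of the TH2 sites, 30 reads in D13, a single site is known only roughly, and 2 vehicle-control animals per generation limit every group comparison. Within a generation, no paired analysis was possible because the labels give no replicate numbers that link decitabine and vehicle animals.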

Other observations

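A further 68 CpG sites of 15 histone genes had at least 10 reads in 8 or 9 of the animals and were left out of the results above. Of these, 53 had a mean under 5%. Of the other 15, 11 lay at Hist1h1a, Hist1h2be and Hist1h2ba. Downstream of Hist1h1a, 5 sites between chr13:23764863 and chr13:23764909, measured in 9 animals, had means between 23.2% and 26.5%, above the 15.5% of the neighbouring member site at chr13:23764793, which ranged from 0% in C14 and D13 to 43.5% in C8. In the intron of Hist1h2be, 5 more sites had means between 36.8% and 76.4%, and the lowest of these, at chr13:23591927, ranged from 14.3% to 57.1%. The unmeasured CpG site in the Hist1h2ba stretch, at chr13:23934100, had 24.0% in 9 animals, within the range of the 14 measured TH2 sites. Upstream of Hist1h4i, a site 46 bp before the start had 10.4%, between 0% and 26.7%. Downstream of Hist1h2bk, a site had 14.6%, between 0% and 40.7%. A site in Hist1h1b, measured in 8 animals, had 5.68%, between 0% and 45.5%. A site in Hist3h2ba, measured in 9 animals, had 5.21%, between 0% and 21.1%. These values have no test.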
